A study of Mus musculus with 29 samples.

Results

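Genes that make, break down or sense prostaglandins and leukotrienes were followed in mouse macrophages given IL-4, IL-6 or IL-10. The 10 genes listed for this purpose were Hpgd, Ptgs1, Ptgs2, Ptges, Alox5, Alox5ap, Alox15, Ltc4s, Lta4h and Cysltr1. A gene was taken through every probe set annotated to it and to no other gene, a probe set being the group of short probes that reads out 1 transcript on the array. Of the 10 genes, 8 had such a probe set, 14 probe sets in all, out of 12393 genes with one on the array. For Ptgs1 and Alox5 the annotation used here gives no probe set, and the expression of both was not analysed here.

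Arachidonic acid released from membranes feeds both branches of this pathway. Cyclooxygenases and terminal synthases turn it into prostaglandins, which Hpgd inactivates by oxidation. Lipoxygenase, helped by the membrane protein encoded by Alox5ap, turns it into the unstable leukotriene that Lta4h and Ltc4s convert to leukotriene B4 and to the cysteinyl leukotrienes, the ligands of Cysltr1. Macrophages are known sources and targets of these lipids.

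All cells were macrophages grown from the bone marrow of wild-type C57BL/6 mice 8 weeks old. They were cultured in Teflon bags for 7 days with 10 ng/ml of CSF-1, a growth factor for macrophages, and then for 24 h with CSF-1 at the same dose, which every group received. The groups had 10 ng/ml of IL-4 (5 arrays), IL-6 (5 arrays), IL-10 (3 arrays), IL-4 with IL-6 (5 arrays), IL-4 with IL-10 (3 arrays) or no further cytokine (unstimulated, 8 arrays). IL-4 signals through STAT6, and IL-6 and IL-10 through STAT3. RNA of the 29 samples was measured on Affymetrix expression arrays. The labels do not say whether arrays of a group come from separate mice or cultures, so the p-values measure the spread between these arrays, which may be technical.

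Values are log2 RMA intensities as deposited, and a difference of 1 is a factor of 2 in intensity. Group means are given with the SD and differences with the standard error (SE). A gene was tested when at least 3 arrays lay above log2 6.99, the median of all values, which 7153 genes did. It was called when limma's two-sided test gave a Benjamini-Hochberg adjusted p under 0.05 over those 7153 genes. Of the listed genes, Hpgd, Alox5ap, Lta4h and Cysltr1 passed this filter. Alox5ap, Lta4h and Cysltr1 lay above it on all 29 arrays, and Hpgd on 23. Ptgs2, Ptges, Ltc4s and Alox15 lay above it on 0 arrays. Every comparison with unstimulated cells uses the same 8 control arrays, so the comparisons are not independent of each other.

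The cells carried the macrophage profile that the labels give, with 8 of 8 macrophage markers above the filter in every group. The mean log2 level of these markers ran from 11.78 to 11.91 with IL-4, 12.96 to 13.03 with IL-6, 12.89 to 12.97 with IL-10, 11.94 to 12.11 with IL-4 and IL-6 and 11.87 to 12.03 with IL-4 and IL-10, against 12.58 to 12.73 in unstimulated cultures. It was thus lower wherever IL-4 was given, as were Hpgd and Alox5ap below. With IL-6 or IL-10 alone it was higher, as was Cysltr1 below, while Hpgd was lower there. With IL-4 alone Cysltr1 was not called against all unstimulated arrays. In the combinations the marker level did not lie below that with IL-4 alone, while Alox5ap did. The part of this marker level in the values of these 3 genes was not tested. The 3' minus 5' log2 difference of Actb, a sign of RNA quality, averaged from 0.25 with IL-6 to 0.42 with IL-4 and IL-10, against 0.36 in unstimulated cultures, and its part was not tested either. Of the 9 mast cell and basophil markers, 0 passed the filter, and of 7 measured neutrophil markers 4 did (S100a8, S100a9, Camp and Ngp). Of 6 eosinophil markers 2 did: the mean of Siglecf lay above it with IL-4 and in unstimulated cultures, that of Ccr3 in the other groups. Of 4 measured dendritic cell markers 1 did, Ccr7, whose mean lay above it with IL-4 and with IL-4 and IL-10. The part of these cells was not tested. The summed intensity of the neutrophil markers ran from 4807 to 6273 with IL-4, 5661 to 7763 with IL-6, 7311 to 10530 with IL-10, 4014 to 5378 with IL-4 and IL-6 and 4795 to 7302 with IL-4 and IL-10, against 6676 to 10670 in unstimulated cultures. With IL-4, and with IL-4 and IL-6, it lay wholly below the unstimulated cultures, and its part in the values of Hpgd and Alox5ap was not tested. B lineage markers averaged log2 6.40 to 6.48 in IL-10 cultures and 5.92 to 6.18 in IL-4 with IL-10 cultures, against 6.42 to 8.45 in unstimulated cultures. They averaged 6.9 to 8.3 with IL-4, 7.4 to 8.5 with IL-6 and 6.9 to 8.3 with IL-4 and IL-6. Their part in the values of any group was not tested. Unstimulated replicates 6 to 8 stood apart from replicates 1 to 5, with 19.1% of genes called between them. Only that group has replicates 6 to 8, and these may be the controls that belong to the IL-10 groups. That is inferred from the replicate numbers and is not stated in the labels, so for the listed genes, calls that change with the choice of controls are given both ways. The genes of the wider pathway described further on were not refitted with other controls.

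Upstream sequence was set beside the genes because the cytokines act through STAT factors. RefSeq promoters (GRCm38.p6) were matched for 7 of the 10 listed genes. Alox5ap, Alox15 and Cysltr1 had none and were not searched. Each matched promoter was read over the 250 bases before the start. These were searched for the motifs TTC and GAA with 4 bases between them, the spacing preferred by STAT6, and with 3 bases between them, the spacing shared by STAT3 and other members of that family. Both motifs are their own reverse complement, so a match counts for both strands, and a match to one cannot start at the same base as a match to the other. Among 32851 promoters of this length, 5.85% hold the first motif and 7.02% the second. Of the 7 listed promoters, 1 held the first, that of Ptges, and 0 held the second. The windows of Ptges and Ptgs1 lie within the annotated span of the gene, so the start used there is an internal one. Of 12 windows of the 11 wider-pathway genes named further on, 0 held the first motif and 2 the second. The windows of Hpgd (chr8:56294302-56294551, plus strand) and Lta4h (chr10:93453146-93453395, plus strand) hold no match and are shown because both genes were tested. Those of Fpr2 (chr17:17887574-17887823, plus strand) and Pla2g7 (chr17:43568201-43568450, plus strand), from the wider pathway, hold the motif with 3 bases between, starting at -77 in Fpr2 and at -145 in Pla2g7, counted from the start. Capitals mark the match.
Hpgd: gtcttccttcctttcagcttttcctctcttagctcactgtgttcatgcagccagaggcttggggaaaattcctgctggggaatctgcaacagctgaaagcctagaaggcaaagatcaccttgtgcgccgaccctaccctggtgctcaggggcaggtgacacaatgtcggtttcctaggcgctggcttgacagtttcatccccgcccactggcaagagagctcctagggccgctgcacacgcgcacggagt
Lta4h: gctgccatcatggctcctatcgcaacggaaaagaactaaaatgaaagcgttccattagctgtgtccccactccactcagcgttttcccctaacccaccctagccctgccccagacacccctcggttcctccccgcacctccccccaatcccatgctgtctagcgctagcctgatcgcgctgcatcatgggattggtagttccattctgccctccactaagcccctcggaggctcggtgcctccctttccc
Fpr2: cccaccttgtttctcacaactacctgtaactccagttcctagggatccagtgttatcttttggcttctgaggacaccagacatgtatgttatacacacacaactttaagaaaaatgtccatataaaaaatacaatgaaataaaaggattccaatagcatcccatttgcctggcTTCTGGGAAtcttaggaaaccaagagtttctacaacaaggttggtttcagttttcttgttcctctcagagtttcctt
Pla2g7: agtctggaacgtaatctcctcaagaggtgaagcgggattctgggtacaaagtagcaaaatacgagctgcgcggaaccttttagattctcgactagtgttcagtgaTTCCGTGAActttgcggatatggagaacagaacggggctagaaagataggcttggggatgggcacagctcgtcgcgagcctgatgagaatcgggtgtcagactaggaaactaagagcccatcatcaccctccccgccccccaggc
A match describes letters in this window only.

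The listed prostaglandin synthesis genes that were measured, Ptgs2 and Ptges, were dim on these arrays. Ptgs2 encodes the inducible cyclooxygenase, and its brighter probe set ran from log2 4.59 to 6.23 over the 29 arrays, all under the filter. Its means were 5.12 ± 0.20 in IL-4 cells (SD, n = 5), 5.91 ± 0.24 in IL-6 cells (n = 5) and 6.00 ± 0.34 in IL-10 cells (n = 3). They were 5.44 ± 0.38 with IL-4 and IL-6 (n = 5) and 5.47 ± 0.08 with IL-4 and IL-10 (n = 3), against 4.95 ± 0.20 in unstimulated cells (n = 8). No IL-6 or IL-10 array overlapped the unstimulated ones. In a fit without the filter, Ptgs2 differed from unstimulated by 0.96 ± 0.14 (SE) with IL-6 (limma adjusted p = 2.61e-06) and by 1.05 ± 0.16 with IL-10 (limma adjusted p = 1.1e-05). Its other probe set ran from 3.43 to 4.21. At such levels the signal over background is unknown and these values are not read as changes. Ptges, which makes prostaglandin E from the cyclooxygenase product, ran from 5.40 to 5.94 on its brighter probe set, with every stimulated group overlapping the unstimulated arrays.

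Hpgd, which inactivates prostaglandins, was lower in every stimulated group than in unstimulated cells. On the IL-4 arrays it read 7.92, 7.77, 7.99, 7.58 and 7.51, on the IL-6 arrays 9.65, 9.54, 9.50, 9.24 and 8.93, and on the IL-10 arrays 8.97, 9.16 and 9.09. With IL-4 and IL-6 together it read 6.90, 6.98, 7.23, 6.95 and 7.23, and with IL-4 and IL-10 together 6.50, 6.49 and 6.08. The unstimulated arrays ran from 10.48 over a median of 10.68 to 10.99. All stimulated arrays lay below all unstimulated ones, and the groups that received IL-4 lay below those that did not.

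Hpgd fell by 2.97 ± 0.11 (SE) with IL-4, 7.83-fold lower (limma adjusted p = 1.6e-18). It fell by 1.35 ± 0.11 with IL-6, 2.55-fold lower (limma adjusted p = 1.23e-10). With IL-10 it fell by 1.65 ± 0.13, 3.14-fold lower (limma adjusted p = 9.25e-11). IL-4 with IL-6 gave -3.67 ± 0.11, 12.7-fold lower (limma adjusted p = 3.27e-21). That fold is uncertain, since only 2 of the 5 arrays lie above the filter. IL-4 with IL-10 gave -4.37 ± 0.13 (limma adjusted p = 8.63e-21), and since its mean of 6.36 ± 0.24 (SD, n = 3) lies under the filter no fold is given. In these bulk samples, fewer cells of a type and less RNA per cell cannot be told apart.

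On the probe set used, both combinations read lower than IL-4 alone. IL-4 with IL-6 differed from IL-4 alone by -0.70 ± 0.13 (limma adjusted p = 2.49e-05) and differed from IL-6 alone by -2.31 ± 0.13 (limma adjusted p = 2.39e-15). IL-4 with IL-10 differed from IL-4 alone by -1.40 ± 0.14 (limma adjusted p = 7.87e-09) and from IL-10 alone by -2.71 ± 0.16 (limma adjusted p = 5e-14). The comparison with IL-4 alone crosses the inferred sets, whose unstimulated arrays differed by -0.08 for Hpgd, not called (limma adjusted p = 0.734). All 3 arrays of IL-4 with IL-10 lie under the filter, as do all but 2 of the 5 arrays of IL-4 with IL-6. The size of the differences that involve the combinations is therefore uncertain, and the combinations are not ranked against each other. Above the filter, neighbouring groups in the order of levels did not overlap, except IL-10 and IL-6, whose difference of -0.30 ± 0.14 was not called (limma adjusted p = 0.168, unadjusted 95% interval -0.60 to -0.004). The probe set used carries the suffix for probes that can match several transcripts, although the annotation names Hpgd alone. A dimmer Hpgd probe set, under the filter on every array, gave -0.89 with IL-4, -0.62 with IL-6 and -0.62 with IL-10. On it neither combination read lower than IL-4 alone, in a fit of all probe sets without the filter. The differences were 0.14 with IL-6 added (limma adjusted p = 0.44) and 0.002 with IL-10 added (limma adjusted p = 0.994).

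**Figure D1:**
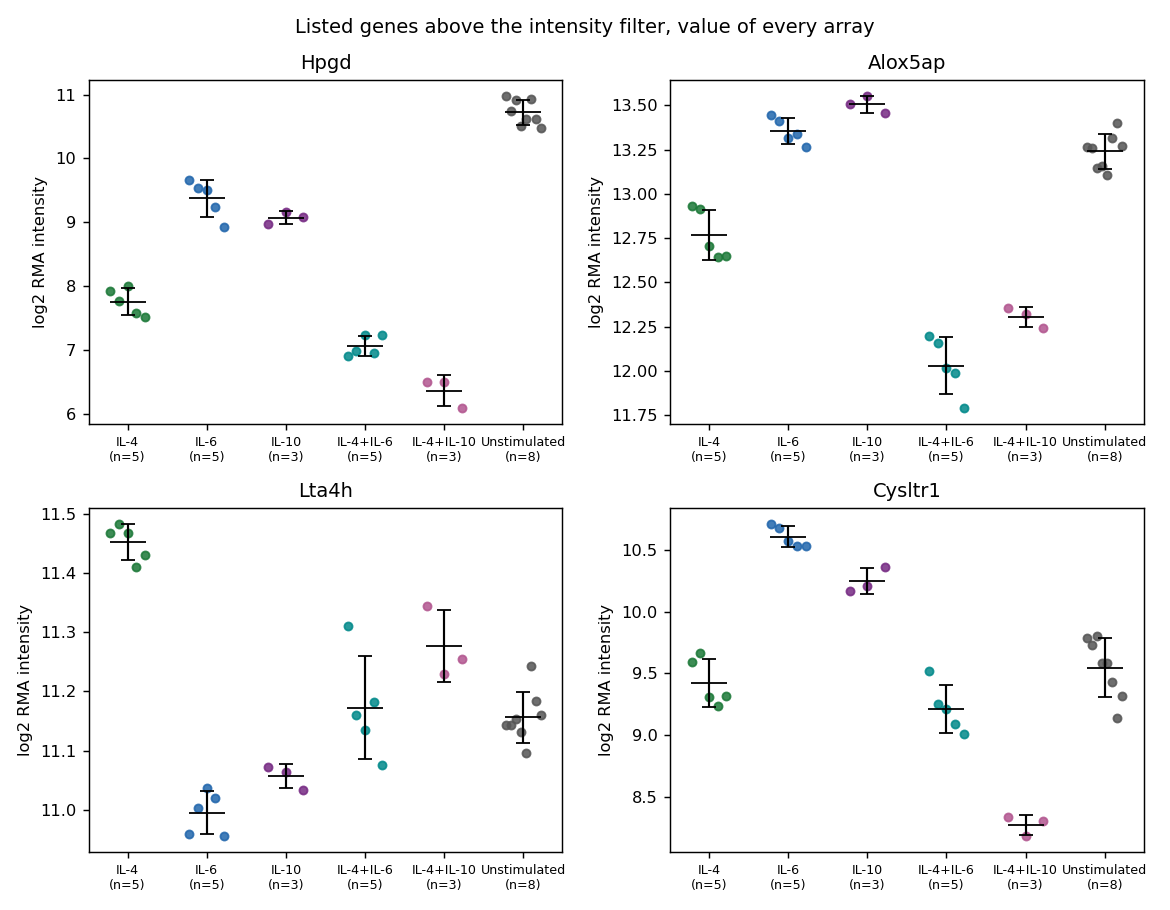
Log2 RMA intensity (vertical axis) of Hpgd, Alox5ap, Lta4h and Cysltr1 on every array, by group, with bars for the mean and SD; each panel has its own vertical range that does not start at 0. Hpgd lies between 10.48 and 10.99 on the unstimulated arrays and lower on every stimulated one.

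Alox5ap, the partner that presents arachidonic acid to the lipoxygenase, was lower wherever IL-4 was present. It read 12.93, 12.92, 12.71, 12.65 and 12.65 with IL-4, and 12.20, 12.16, 12.02, 11.99 and 11.79 with IL-4 and IL-6. It read 12.36, 12.32 and 12.24 with IL-4 and IL-10. Without IL-4 the values were 13.44, 13.41, 13.31, 13.34 and 13.26 with IL-6, 13.50, 13.55 and 13.46 with IL-10, and 13.11 to 13.40 with a median of 13.26 in unstimulated cells. The 3 groups with IL-4 lay wholly below the other 3, and only IL-6 overlapped the unstimulated arrays.

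Alox5ap fell by 0.47 ± 0.06 (SE) with IL-4, 1.39-fold lower (limma adjusted p = 2.06e-07). IL-4 with IL-6 gave -1.21 ± 0.06, 2.31-fold lower (limma adjusted p = 2.94e-16), and IL-4 with IL-10 gave -0.93 ± 0.07, 1.91-fold lower (limma adjusted p = 7.68e-12). Both combinations lay below IL-4 alone, by -0.74 (limma adjusted p = 2.82e-10) and -0.46 (limma adjusted p = 1.89e-05). The latter comparison crosses the inferred sets, whose unstimulated arrays differed by 0.14 for Alox5ap, not called (limma adjusted p = 0.195). Its size is therefore uncertain. Alox5ap was 0.26 ± 0.07 higher with IL-10 (limma adjusted p = 0.0052). Against unstimulated replicates 6 to 8 alone that was 0.18 and not called (limma adjusted p = 0.0675). With IL-6 it was 0.11 ± 0.06 higher and not called (limma adjusted p = 0.143). With the replicate number as a block and unstimulated replicates 1 to 5 as controls, an alternative chosen after seeing the data, it was 0.17 and called (limma adjusted p = 0.00106), and without the block 0.17 and not called (limma adjusted p = 0.0721). The difference between the combinations, 0.28 (limma adjusted p = 0.00608), was 0.14 and not called with a term for the inferred sets (limma adjusted p = 0.439).

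Lta4h, which makes leukotriene B4, was higher with IL-4 and lower with IL-6, with group means within 0.46 of each other on the log2 scale. It read 11.47, 11.48, 11.47, 11.41 and 11.43 with IL-4, 10.96, 11.00, 11.04, 11.02 and 10.96 with IL-6, and 11.07, 11.06 and 11.03 with IL-10. The combinations read 11.31, 11.16, 11.13, 11.18 and 11.07 with IL-6 added to IL-4, and 11.34, 11.23 and 11.26 with IL-10 added. Unstimulated arrays ran from 11.10 to 11.24 with a median of 11.15. IL-4 arrays were all higher and IL-6 and IL-10 arrays all lower than the unstimulated ones, and both combinations overlapped them.

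Lta4h rose by 0.30 ± 0.03 (SE) with IL-4 (limma adjusted p = 1.14e-08) and fell by 0.16 ± 0.03 with IL-6 (limma adjusted p = 0.000239). Both combinations lay below IL-4 alone, by -0.28 with IL-6 added (limma adjusted p = 1.61e-07) and -0.18 with IL-10 added (limma adjusted p = 0.00086). The latter comparison crosses the inferred sets, whose unstimulated arrays differed by 0.06 for Lta4h, not called (limma adjusted p = 0.294). Its size is therefore uncertain. IL-4 with IL-6 differed from unstimulated by 0.02 ± 0.03 (limma adjusted p = 0.674, 95% interval -0.05 to 0.08). IL-4 with IL-10 was 0.12 ± 0.04 higher (limma adjusted p = 0.00749). Without IL-4+IL-10 replicate 1 that was 0.09 and not called (limma adjusted p = 0.0892), and against replicates 6 to 8 alone 0.08 (limma adjusted p = 0.237). The IL-10 difference was -0.10 ± 0.04 (limma adjusted p = 0.0446), and its call was lost without any of 12 arrays, with adjusted p up to 0.146. Against replicates 6 to 8 alone it was -0.14 and not called (limma adjusted p = 0.118). The 12 arrays were IL-10 replicates 1 to 3, IL-6 replicates 2 and 4, IL-4+IL-6 replicate 4 and unstimulated replicates 1, 2, 3, 6, 7 and 8. Between the combinations, Lta4h differed by 0.10 ± 0.04, IL-4 with IL-10 being the higher (limma adjusted p = 0.0465). That call was lost without any of 18 of the 29 arrays, with adjusted p up to 0.254, and with a term for the inferred sets (0.04, limma adjusted p = 0.68). The 18 arrays were IL-4 replicates 1, 2, 3 and 5, IL-6 replicates 2 and 4, IL-10 replicate 2, IL-4+IL-6 replicates 2 to 5, IL-4+IL-10 replicates 1 and 3 and unstimulated replicates 1 to 4 and 8. The other Lta4h probe sets lay under the filter on all arrays. In a fit of all probe sets without the filter, they were not called with IL-4 (0.19 and 0.05) or IL-6 (-0.17 and 0.03). The brighter of them was called lower with IL-10 (-0.41, limma adjusted p = 0.0204) and with IL-4 and IL-6 (-0.26, limma adjusted p = 0.0446). At this level these values are not read as changes.

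The neighbouring enzymes of this branch were dim. Ltc4s, which couples leukotriene to glutathione, ran from log2 5.64 to 6.84, under the filter throughout. Alox15, a lipoxygenase that IL-4 is known to induce in human monocytes, ran from 4.60 to 5.60. On the IL-4 arrays Alox15 read 5.60, 5.09, 4.88, 5.01 and 4.88, and 5.09 ± 0.29 on average (SD, n = 5), against 4.82 ± 0.18 in unstimulated cells (n = 8). These groups overlapped, and the difference of 0.28 is not read as a change at this level.

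**Figure D2:**
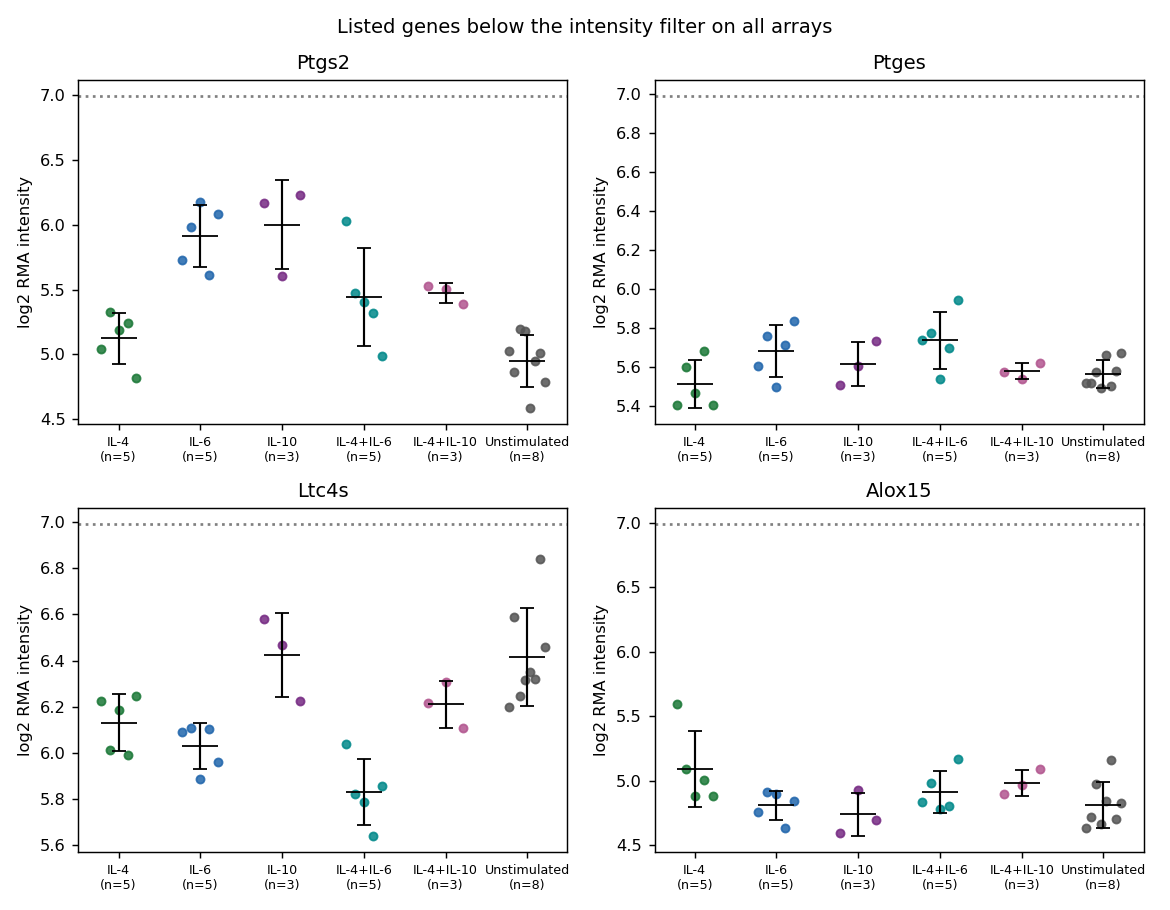
Log2 RMA intensity (vertical axis) of Ptgs2, Ptges, Ltc4s and Alox15 on every array, by group, with bars for the mean and SD; the dotted line is the filter at log2 6.99. Every point lies under the line, and Ptgs2 is highest in the IL-6 and IL-10 groups.

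Cysltr1, the receptor for cysteinyl leukotrienes, was higher with IL-6 or IL-10 alone and lower when either was combined with IL-4. With IL-6 it read 10.71, 10.68, 10.58, 10.53 and 10.53, with IL-10 it read 10.17, 10.21 and 10.36, and with IL-4 it read 9.60, 9.66, 9.31, 9.23 and 9.32. With IL-4 and IL-6 it read 9.52, 9.25, 9.21, 9.09 and 9.01, and with IL-4 and IL-10 it read 8.34, 8.18 and 8.30. Unstimulated arrays ran from 9.14 over a median of 9.58 to 9.81. IL-6 and IL-10 arrays were all higher, IL-4 with IL-10 arrays were all lower, and the other stimulated groups overlapped the unstimulated ones.

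Cysltr1 rose by 1.06 ± 0.10 (SE) with IL-6, 2.08-fold (limma adjusted p = 8.29e-10), and by 0.70 ± 0.12 with IL-10, 1.62-fold (limma adjusted p = 1.94e-05). It fell by 0.33 ± 0.10 with IL-4 and IL-6 (limma adjusted p = 0.00327) and by 1.27 ± 0.12, 2.42-fold lower, with IL-4 and IL-10 (limma adjusted p = 1.58e-10). IL-4 alone gave -0.12 ± 0.10 and was not called (limma adjusted p = 0.283). Cysltr1 itself differed between the unstimulated arrays, at 9.30 on replicates 6 to 8 and 9.70 on replicates 1 to 5 (difference -0.40 ± 0.10, limma adjusted p = 0.00533). Against replicates 1 to 5 alone, IL-4 gave -0.27 and was called (limma adjusted p = 0.0122), also with the replicate number as a block (limma adjusted p = 0.000219). Against replicates 6 to 8 alone, IL-10 gave 0.95 (limma adjusted p = 2.61e-05) and IL-4 with IL-10 gave -1.02 (limma adjusted p = 2.79e-06).

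Set against the single cytokines, IL-4 with IL-10 differed from IL-4 alone by -1.15 ± 0.12 (limma adjusted p = 1.82e-08) and differed from IL-10 alone by -1.97 ± 0.14 (limma adjusted p = 1.84e-12). The comparison with IL-4 alone crosses the inferred sets, whose unstimulated arrays differed by -0.40 for Cysltr1, so its size is uncertain. IL-4 with IL-6 differed from IL-6 alone by -1.39 ± 0.11 (limma adjusted p = 6.1e-12). Its difference from IL-4 alone, -0.21 ± 0.11, was not called (limma adjusted p = 0.0974). That difference was called without both IL-10 groups and unstimulated replicates 6 to 8 (limma adjusted p = 0.0478), also with the replicate number as a block (limma adjusted p = 0.00213), and without IL-4+IL-6 replicate 1 (-0.28, limma adjusted p = 0.0262). Between the combinations, IL-4 with IL-10 lay lower than IL-4 with IL-6 by -0.94 ± 0.12 (limma adjusted p = 1.68e-06), and by -0.54 with a term for the inferred sets (limma adjusted p = 0.00853). A further Cysltr1 probe set gave 0.97 with IL-6, 0.77 with IL-10 and -1.09 with IL-4 and IL-10, the same directions.

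Whether the effects of IL-4 and its partner add was asked with an interaction, in which both single cytokines are subtracted from the combination and the unstimulated level is added back, so that 0 means that they add. For Cysltr1 the single cytokines sum to 0.93 for IL-4 and IL-6, while the combination gave -0.33, an interaction of -1.27 ± 0.15 (limma adjusted p = 6.09e-08). For IL-4 and IL-10 the sum was 0.58 and the combination -1.27, an interaction of -1.85 ± 0.17 (limma adjusted p = 5.66e-09). Both Cysltr1 interactions use all unstimulated arrays, which differed by -0.40 between replicates 6 to 8 and 1 to 5, so their sizes are uncertain. Alox5ap likewise fell below its sums of -0.36 and -0.21, with interactions of -0.85 ± 0.09 for IL-6 (limma adjusted p = 1.98e-08) and -0.73 ± 0.11 for IL-10 (limma adjusted p = 1.12e-05). These also use all unstimulated arrays, which differed by 0.14 for Alox5ap between replicates 6 to 8 and 1 to 5, not called (limma adjusted p = 0.195). For Hpgd the sum for IL-4 and IL-6 was -4.32 and the combination -3.67, an interaction of 0.65 ± 0.17 (limma adjusted p = 0.00266). That sum would place Hpgd under the filter, where most arrays of the combination lie, so the interaction is not read as a departure from addition. With IL-10 its interaction of 0.26 ± 0.20 was not called (limma adjusted p = 0.359). All arrays of that combination lie under the filter, where its sum of -4.62 would also place Hpgd, so this is not read as addition. On the dimmer Hpgd probe set, under the filter on every array, the interaction with IL-10 was 0.62 and called (limma adjusted p = 0.0359, all probe sets without the filter). Lta4h gave -0.12 ± 0.05 with IL-6 (limma adjusted p = 0.0558), and -0.14 and called without both IL-10 groups and unstimulated replicates 6 to 8 (limma adjusted p = 0.028), also with the replicate number as a block (limma adjusted p = 0.0177). Without IL-4 replicate 4, IL-6 replicate 5, IL-4+IL-6 replicate 1 or unstimulated replicate 6 it was also called, with adjusted p down to 0.00675. With IL-10 it gave -0.08 ± 0.06 (limma adjusted p = 0.344).

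**Figure D3:**
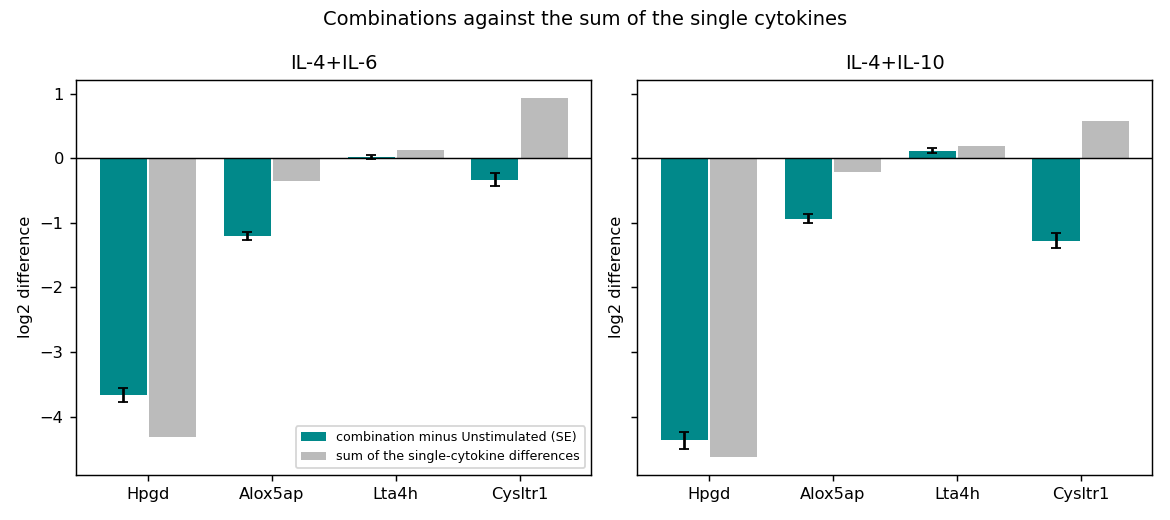
Log2 difference from unstimulated (vertical axis, from 0) of each combination, with SE bars, beside the sum of the differences of its single cytokines, for Hpgd, Alox5ap, Lta4h and Cysltr1. For Cysltr1 the sums are positive, 0.93 and 0.58, and the combinations negative, -0.33 and -1.27.

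Counted over the 4 tested genes, limma called 3 with IL-4 against 59.5% of all genes, 3 with IL-6 against 39.3%, and 4 with IL-10 against 37.8%. It called 3 with IL-4 and IL-6 against 73.8%, and 4 with IL-4 and IL-10 against 72.1%. These counts depend on the controls. Against only the controls inferred for the IL-10 groups, Alox5ap and Lta4h lost their calls with IL-10. Lta4h also lost its call with IL-4 and IL-10. Leaving out single arrays gave 3 to 4 calls in both comparisons. With the other unstimulated arrays alone, Cysltr1 gained a call with IL-4, and with the replicate block Alox5ap gained one with IL-6. From IL-4 alone, 3 differed after adding IL-6 (60.5% of all genes) and 4 after adding IL-10 (57.3%). From the partner alone, 4 differed after adding IL-4 to IL-6 (66.9%) and 4 after adding it to IL-10 (59.9%). The combinations differed in 4 (42.8%), of which a term for the inferred sets left 2, and the Lta4h and Hpgd differences among them carry the limits given above. The interactions were called for 3 with IL-6 (40%) and 2 with IL-10 (25.6%). The median difference of the 4 genes was -0.30 with IL-4, -0.02 with IL-6 and 0.08 with IL-10, beside -0.01, -0.03 and 0.00063 over all genes. It was -0.77 with IL-4 and IL-6 and -1.10 with IL-4 and IL-10, beside -0.02 and 0.02. IL-10 against IL-6 called 0 of the 4 (11.9% of all genes), with 2 at an unadjusted p under 0.05. In that comparison Cysltr1 differed by -0.36 ± 0.12 (limma adjusted p = 0.0571), and was called without unstimulated replicate 7 or IL-4+IL-6 replicate 1 (adjusted p 0.0273 and 0.0465). It was 0.04 with a term for the inferred sets (limma adjusted p = 0.999).

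By Pearson correlation of log2 values over the 29 arrays, Hpgd lay closest to Fam107b (r = 0.979), Cited2 (0.975) and Gpr34 (0.971). Cysltr1 lay closest to Adap2 (0.946), Asah1 (0.93) and Itgam (0.926), and Itgam is also among the macrophage markers used above. The points are the same arrays and groups, so these values describe shared differences between groups, and all group means of Gpr34 lie under the filter.

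The wider eicosanoid pathway was taken as a list of 58 further symbols, in which 1 gene stands under both its older and its current symbol. Of these 47 had a probe set, 27 were tested and 20 stayed under the filter. Of the 27, limma called 12 higher and 10 lower with IL-4 (81.5%), 8 and 6 with IL-6 (51.9%), and 7 and 5 with IL-10 (44.4%). With IL-4 and IL-6 there were 16 higher and 8 lower (88.9%), and with IL-4 and IL-10 13 and 8 (77.8%). Among the 27 are Pla2g5, Mgst2 and Ltb4r1, which passed the filter only through groups where they were high. Over all genes tested, the shares called higher and lower were 27.6% and 31.9% with IL-4, 16.1% and 23.2% with IL-6, 18.3% and 19.5% with IL-10, 35% and 38.8% with IL-4 and IL-6, and 38.1% and 34% with IL-4 and IL-10. Median differences were 0.10, 0.03 and 0.0044 for the single cytokines in that order, and 0.24 and 0.06 for the combinations. A total of 11 genes were called with a difference of at least 1 in some comparison with unstimulated cells and are described by role.

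Among prostanoid synthases, Hpgds, which makes prostaglandin D, fell in every group with IL-4. It averaged 8.89 ± 0.16 with IL-4 (SD, n = 5), 8.26 ± 0.11 with IL-4 and IL-6 (n = 5) and 8.30 ± 0.14 with IL-4 and IL-10 (n = 3), against 10.88 ± 0.07 in unstimulated cells (n = 8). The differences were -1.996 with IL-4 (limma adjusted p = 8.27e-22), -2.63 with IL-4 and IL-6 (limma adjusted p = 4.52e-25) and -2.59 with IL-4 and IL-10 (limma adjusted p = 9.27e-23). IL-6 and IL-10 alone gave -0.04 and -0.06, not called.

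Of the 9 prostanoid receptors listed, 4 were tested, and Tbxa2r, the thromboxane receptor, was called in 0 of the 5 comparisons with unstimulated cells (differences -0.08 to 0.10). Ptgir, the prostacyclin receptor, rose by 1.96 ± 0.09 (SE) with IL-4 (limma adjusted p = 8.7e-17), by 1.29 with IL-4 and IL-6 and by 1.56 with IL-4 and IL-10. Ptger2, a prostaglandin E receptor, rose by 1.15 ± 0.11 with IL-4 (limma adjusted p = 3.69e-10), by 0.71 with IL-4 and IL-6 and by 1.02 with IL-4 and IL-10. Ptger4, another receptor for the same ligand, fell by 1.02 ± 0.06 with IL-4 (limma adjusted p = 4.31e-14). It rose by 1.14 ± 0.06 with IL-6 (limma adjusted p = 1.3e-14) and by 1.29 ± 0.07 with IL-10 (limma adjusted p = 5.6e-14). Ptger4 averaged 9.54 ± 0.10 with IL-4 (SD, n = 5) and 11.70 ± 0.09 with IL-6 (n = 5), against 10.56 ± 0.11 in unstimulated cells (n = 8). With IL-4 and IL-6 it was 0.68 higher, and with IL-4 and IL-10 it differed by 0.06, not called.

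Phospholipases and leukotriene genes gave the rest. Pla2g7, which degrades platelet-activating factor, fell by 1.77 ± 0.10 (SE) with IL-4 and IL-6 (limma adjusted p = 8.48e-15) and by 1.91 ± 0.12 with IL-4 and IL-10 (limma adjusted p = 1.45e-13). With IL-4 alone the Pla2g7 difference was -0.37 (limma adjusted p = 0.0035). Pla2g5, a secreted phospholipase, averaged 7.27 ± 0.07 with IL-4 and IL-6 (SD, n = 5) and its mean lay under the filter in every other group. Fpr2, a receptor for lipoxin and formyl peptides, rose by 0.89 ± 0.10 with IL-6 (limma adjusted p = 6.11e-08) and by 1.22 ± 0.12 with IL-10 (limma adjusted p = 5.94e-09). All IL-4 groups lay under the filter for Fpr2, at 5.76 ± 0.21 with IL-4 (SD, n = 5), against 7.35 ± 0.20 in unstimulated cells (n = 8).

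Cyp4f18, which inactivates leukotriene B4, rose by 1.24 ± 0.17 (SE) with IL-4 (limma adjusted p = 4.16e-07). With IL-4 and IL-6 it averaged 6.86 ± 0.32 (SD, n = 5), under the filter, against 7.47 ± 0.27 in unstimulated cells (n = 8). Mgst3, a microsomal glutathione transferase, was called lower in all 5 stimulated groups, by -1.02 ± 0.07 with IL-4 and IL-6 (limma adjusted p = 7.29e-14) and by -0.24 to -0.62 in the others. Mgst2, a related transferase, passed the filter only through the unstimulated arrays, at 7.61 ± 0.46 (SD, n = 8), and its stimulated arrays all lay under the filter. Ltb4r1, the leukotriene B4 receptor, passed it only through the IL-4 with IL-10 arrays, at 7.24 ± 0.21 (SD, n = 3), against 6.09 ± 0.17 in unstimulated cells (n = 8). The calls of both genes against values under the filter are not read as changes.

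**Figure D4:**
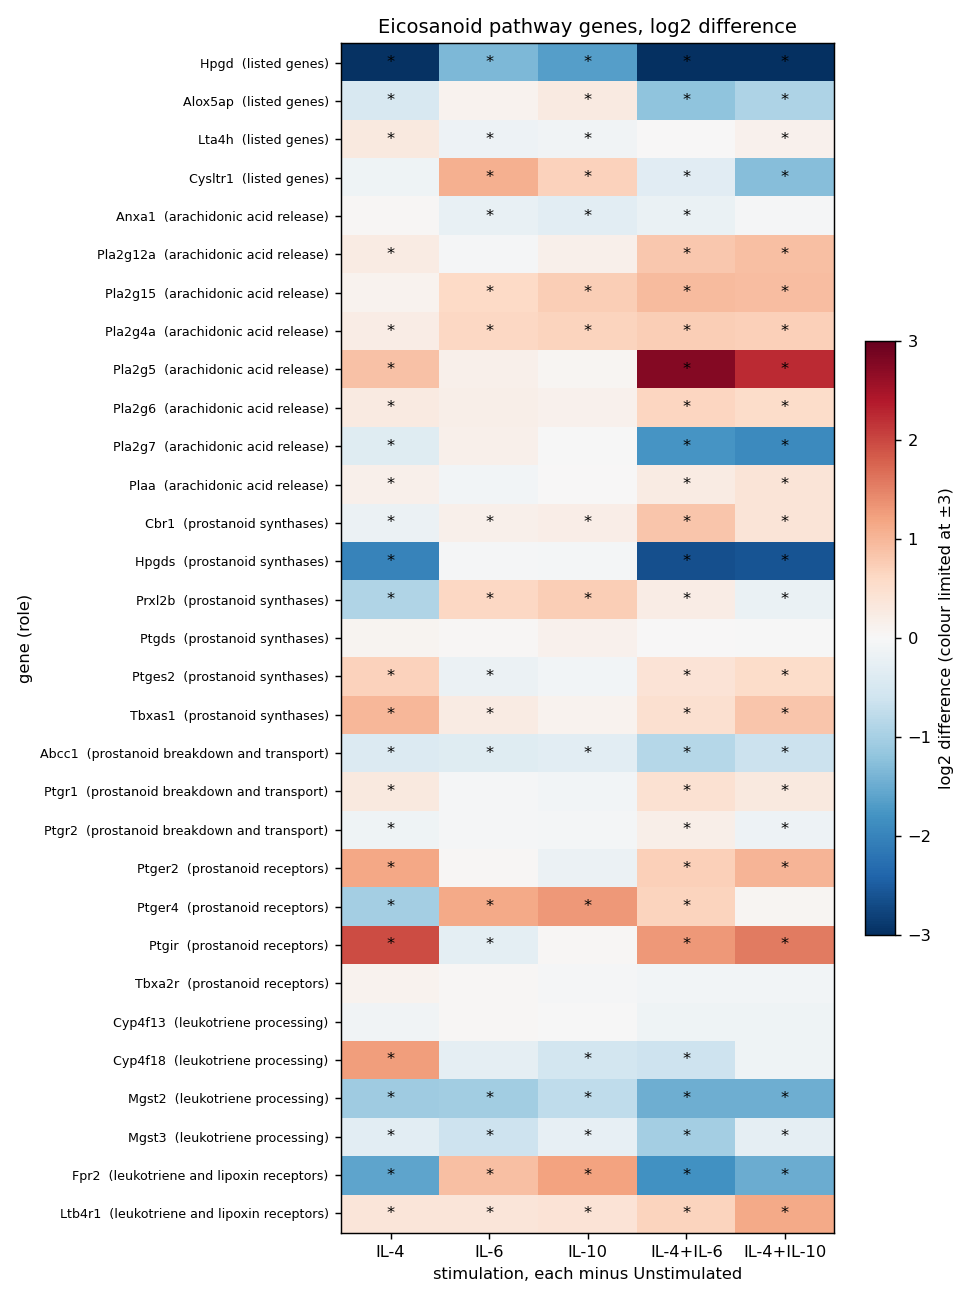
Log2 difference from unstimulated (colour, limited at 3 in either direction) for the 4 tested listed genes and the 27 tested genes of the wider list, in rows by role, for the 5 stimulations in columns; an asterisk marks a call by limma. Hpgd and Hpgds are among the darkest blue cells in the columns with IL-4, and Ptger4 changes colour between IL-4 and IL-6 or IL-10.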

How the data were processed

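Total RNA of 29 macrophage samples was measured on Affymetrix arrays. The deposited table holds log2 intensities, for which the submitters' processing notes name RMA as the authors' method and GCOS 1.4 without a role. The notes leave out the base of the logarithm, and the highest value of 15.13 exceeds 11.09, the natural log of the largest 16-bit intensity. Array medians lie between 6.95 and 7.04, and correlations between arrays between 0.973 and 0.998. No detection calls were used here, so the number of arrays limits the precision and depth over background is unknown.

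The values were used without further normalization. The annotation supplied names 1 gene for 20393 probe sets, several for 691 (not used) and none for 1606. Of the gene IDs, 20351 probe sets were found in the RefSeq gene table and 29 were not. The probe set with the highest mean stood for its gene. One model of 6 group means was fitted over all arrays (limma 3.58.1, R 4.3.3), tested on simulated data, for 13 comparisons and the split of the unstimulated arrays, with Benjamini-Hochberg adjustment.

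Named genes are the 10 listed, the wider-list genes called with an absolute log2 difference of at least 1, and the 3 most correlated genes of each listed gene whose means span at least 2. The members and lists were chosen with earlier results of these data known. Genes in the closing observations were chosen after their values were seen.

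Replicate numbers were checked as pairs from correlations of deviations from the group means. Same-numbered arrays correlated at 0.415 to 0.7 among the IL-4, IL-6, IL-4+IL-6 and unstimulated groups, and at 0.596 to 0.776 between both IL-10 groups. There the numbers were taken to pair the arrays. Differently numbered arrays reached 0.487 for IL-4 and 0.511 for IL-6 against unstimulated. In these comparisons 3 and 4 of 5 arrays correlated best with their own number. Between the sets, same-numbered correlations ran from -0.685 to 0.518 and pair nothing. Alternatives were no filter, averaged probe sets, each probe set alone, quantile normalization, median centring, robust eBayes with trend, only the groups compared, the replicate block, a term for the inferred sets, 1 set only, and leaving out each array.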

Additional observations from a re-analysis of the deposited data

How the results depend on the processing

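Of the listed genes' single comparisons under the alternatives other than leaving out arrays, 490 kept direction and side of the threshold, 17 lost their call, 20 gained one and 5 turned direction. The turned ones, with cause not tested, were mostly Lta4h. With the mean of its probe sets, which adds 2 dim ones, Lta4h gave -0.0661 for IL-4 with IL-6, -0.0296 for IL-4 with IL-10, and -0.0727 for IL-10 minus IL-6. Quantile normalization gave -0.00049 for IL-4 with IL-6, where leaving out each array gave -0.0187 to 0.0402. Cysltr1 for IL-10 minus IL-6 was 0.0431 with a term for the set. The replicate block changed the calls given in the report, and no other call of a listed gene where the numbers were taken to pair the arrays.

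Without the filter, which adds the 4 dim genes, 5 listed genes instead of 3 were called with IL-4, 5 instead of 3 with IL-6, 6 instead of 3 with IL-4 and IL-6, and 5 instead of 3 for IL-4 with IL-6 minus IL-4. For IL-10 minus IL-6, 1 was called without the filter and with only the groups compared, 2 with the replicate block, and 0 to 1 on leaving out each array. All genes called there numbered 850, against 417 without the filter, 1788 with the block, 7 with the set term, and 89 to 1182 on leaving out each array (89 without IL-10 replicate 2, 477 without IL-10 replicate 1, 471 and 467 without IL-6 replicates 1 and 4). Unstimulated replicates 6 to 8 minus 1 to 5 gave 1366, and 841 to 1434 on leaving out each array, lowest without replicate 7. The set term gave 2370 instead of 4100 genes for IL-4 with IL-10 minus IL-4, and 1159 instead of 3063 between the combinations, with 2 of 4 listed genes. With 1 set only, IL-10 gave 1394 genes instead of 2704, and 2 listed genes instead of 4. These causes were not tested.

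Every probe set by itself counts probe sets and so gave more calls. They were 4159 with IL-10, 8010 with IL-4 and IL-6, 7895 with IL-4 and IL-10, 6508 and 7231 for IL-4 with IL-6 minus IL-4 and minus IL-6, 6299 and 6430 for IL-4 with IL-10 minus IL-4 and minus IL-10, 1652 for IL-10 minus IL-6, 4772 between the combinations and 2393 for the split. The split of unstimulated arrays could not be fitted with the replicate block or the set term. Lta4h differences between the combinations lost their call without 18 of 29 arrays, with adjusted p up to 0.254. Signal over background limits Ptgs2, Ptges, Ltc4s and Alox15.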

Other observations

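Several further genes of the wider list differed by less than 1 and were chosen here after their values were seen. Tbxas1, which makes thromboxane, averaged 11.58 with IL-4, 11.05 with IL-4 and IL-6 and 11.41 with IL-4 and IL-10, against 10.58 in unstimulated cells. Its differences were 0.998, 0.47 and 0.83 (limma adjusted p at most 1.15e-08). Pla2g4a, the cytosolic phospholipase that releases arachidonic acid, was called higher in all 5 stimulated groups, at 9.43 to 9.94 against 9.20 in unstimulated cells. Abcc1, an exporter of cysteinyl leukotrienes, was called lower in all 5, at 10.68 to 11.23 against 11.54, with the largest difference of -0.86 for IL-4 with IL-6.

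Prxl2b, a prostaglandin F synthase, was lower with IL-4 (8.35, difference -0.90) and higher with IL-6 (9.88, difference 0.62) and IL-10 (9.99, difference 0.74), against 9.25 in unstimulated cells. Prxl2b was not called lower with IL-4 and IL-6. Ptges2, a prostaglandin E synthase, was higher with IL-4 (8.21, difference 0.70), against 7.51 in unstimulated cells.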
